A study of Mus musculus with 46 samples.

Results

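The proteasome is the large protease that degrades ubiquitin-tagged proteins, and the genes described here are all those whose symbol begins with Psm followed by a family letter from a to g and a digit, without pseudogenes. There were 50 such genes among the 25888 genes of the deposited tables. RNA came from the nucleus accumbens, part of the ventral striatum, of 46 male mice, each hybridised to 1 Affymetrix mouse transcriptome array. The mice formed 8 groups of 5 or 6. DBA/2J and C57BL/6J, both inbred strains, each had mice with nicotine still running (6 DBA/2J, 5 C57BL/6J), mice with saline still running (6 and 6), mice withdrawn from nicotine (5 DBA/2J, 6 C57BL/6J) and mice withdrawn from saline (6 and 6). All 46 carried a subcutaneous osmotic minipump for 14 days, delivering (-)-nicotine hydrogen tartrate at 24 mg/kg/day or saline alone. Chronic mice were killed with the pump in place, and in withdrawal mice it had been surgically removed 24 hours before.

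The core particle, called 20S, is a barrel of outer alpha rings and inner beta rings. Within the beta rings, Psmb5, Psmb6 and Psmb7 encode the subunits with chymotrypsin-like, caspase-like and trypsin-like activity. The 19S cap sits on the barrel, where its ATPases (Psmc genes) unfold substrates and its other subunits (Psmd genes) bind and strip ubiquitin. Interferon-induced cells exchange the catalytic subunits for Psmb8, Psmb9 and Psmb10, which gives the immunoproteasome, and Psme1 and Psme2 encode a further cap, PA28. In neurons the proteasome also acts at synapses, where protein turnover accompanies plasticity.

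Values per mouse, in log2 units of array signal, were at hand for 36 of the 50 genes, 6 of them alpha ring, 4 beta ring, 4 immunoproteasome or thymoproteasome, 4 ATPase, 8 other 19S subunits, 1 19S and 3 20S assembly chaperones, 4 activators and 2 that carry the symbol without being established subunits. The 2 are Psmc3ip, a meiotic recombination factor, and Psme2b, a copy of Psme2 whose sequence is close enough that its signal and that of Psme2 may not be fully separate. Of the 36 genes, 32 lay above the median level of their array on at least 5 arrays and were tested along with all 9609 genes that did. Psmb8, Psmb9, Psmb11 and Psma8 exceeded that level on 0 of 46 arrays. The other 14 genes, on chromosomes 1 to 5, had only the authors' S-scores, which are standardised differences between a nicotine mouse and the saline mice. The levels below compare one gene between mice, never one gene with another. In tissue RNA, fewer cells of a type and less RNA per cell cannot be told apart.

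All 9 striatal spiny neuron markers with array values passed the filter, so the labelled tissue carried its defining transcripts. Array medians lay between 6.52 and 6.63. One array stood apart: C57BL/6J chronic saline mouse 3 correlated least with the rest of its group (r = 0.993) and had the lowest summed striatal marker signal of its group (88356 units of linear signal), together with the highest sum of cortical excitatory neuron markers (45604 units). Where leaving out this mouse changed a proteasome call or moved a proteasome difference described below by over 1.5 times, the difference without it is given too.

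Strain made the clearest difference among proteasome genes, and it centred on Psmb6. In saline mice, 8 of the 32 genes differed between DBA/2J and C57BL/6J at an adjusted p under 0.05 (limma, two-sided, Benjamini-Hochberg over all genes), 7 lower (19.4% of all genes were) and 1 higher (12.4%) in DBA/2J. That share, 25%, lay below the 31.8% of all tested genes that differed. In nicotine mice, which are other animals, 5 of 32 differed (15.6%, against 26.2% of all genes), 4 lower (10.8%) and 1 higher (15.4%). The median difference of the 32 genes was -0.04 in saline mice and 0.02 in nicotine mice, against -0.02 and 0.02 over all genes. Leaving out the mouse that stood apart gave a saline median of -0.06. The saline count then stayed at 8, as Psmc6 lost its call and Psmd11, at -0.08, gained one (limma adjusted p = 0.041). With arrays centred on their medians, 10 genes were called in saline mice, all 10 lower, and over all genes 667 of 3334 calls were higher, in place of 1195 of 3056.

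Psmb6, on chromosome 11 (70525357 to 70527858, the files' coordinates, 110 probes), encodes the caspase-like subunit of the constitutive core. In saline mice its lowest, median and highest log2 levels were 9.17, 9.35 and 9.49 in DBA/2J (n = 12), against 9.59, 10.10 and 10.35 in C57BL/6J (n = 12). Every DBA/2J saline mouse lay below every C57BL/6J saline mouse. The difference was -0.72 (95% interval -0.85 to -0.58), a level 0.607 times that of C57BL/6J (limma adjusted p = 5.3e-12). The lowest C57BL/6J value was that of the mouse that stood apart, without which the difference was -0.76. In nicotine mice the levels were 9.21, 9.47 and 9.63 in DBA/2J (n = 11), against 9.80, 9.95 and 10.32 in C57BL/6J (n = 11), again without overlap. There the difference was -0.54 (-0.68 to -0.40), or 0.688 times the C57BL/6J level (limma adjusted p = 4.1e-08). Groups that did not overlap made up 4.67% of all genes in saline mice and 4.77% in nicotine mice. Values for single probes were not used here, so whether every probe of Psmb6 differs was not tested.

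Around Psmb6, 31 other tested genes lay within 500 kb, and 11 of them differed between the saline groups (35.5%, near the 31.8% of all genes), 8 of these lower in DBA/2J. For the other 3 measured genes of the constitutive beta ring, the 95% interval of the saline difference excluded -0.72. Psmb5, the chymotrypsin-like subunit, averaged 10.97 ± 0.16 in DBA/2J saline mice and 10.96 ± 0.24 in C57BL/6J saline mice (SD, n = 12 each), a difference of 0.01 (-0.16 to 0.17), and without the mouse that stood apart it was -0.06. Psmb1 and Psmb3, structural subunits of the same ring, differed by -0.07 (-0.17 to 0.03) and -0.02 (-0.14 to 0.10). For Psmb3 the difference was -0.06 without the mouse that stood apart. None of these 3 passed the test in either set of mice.

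**Figure D1:**
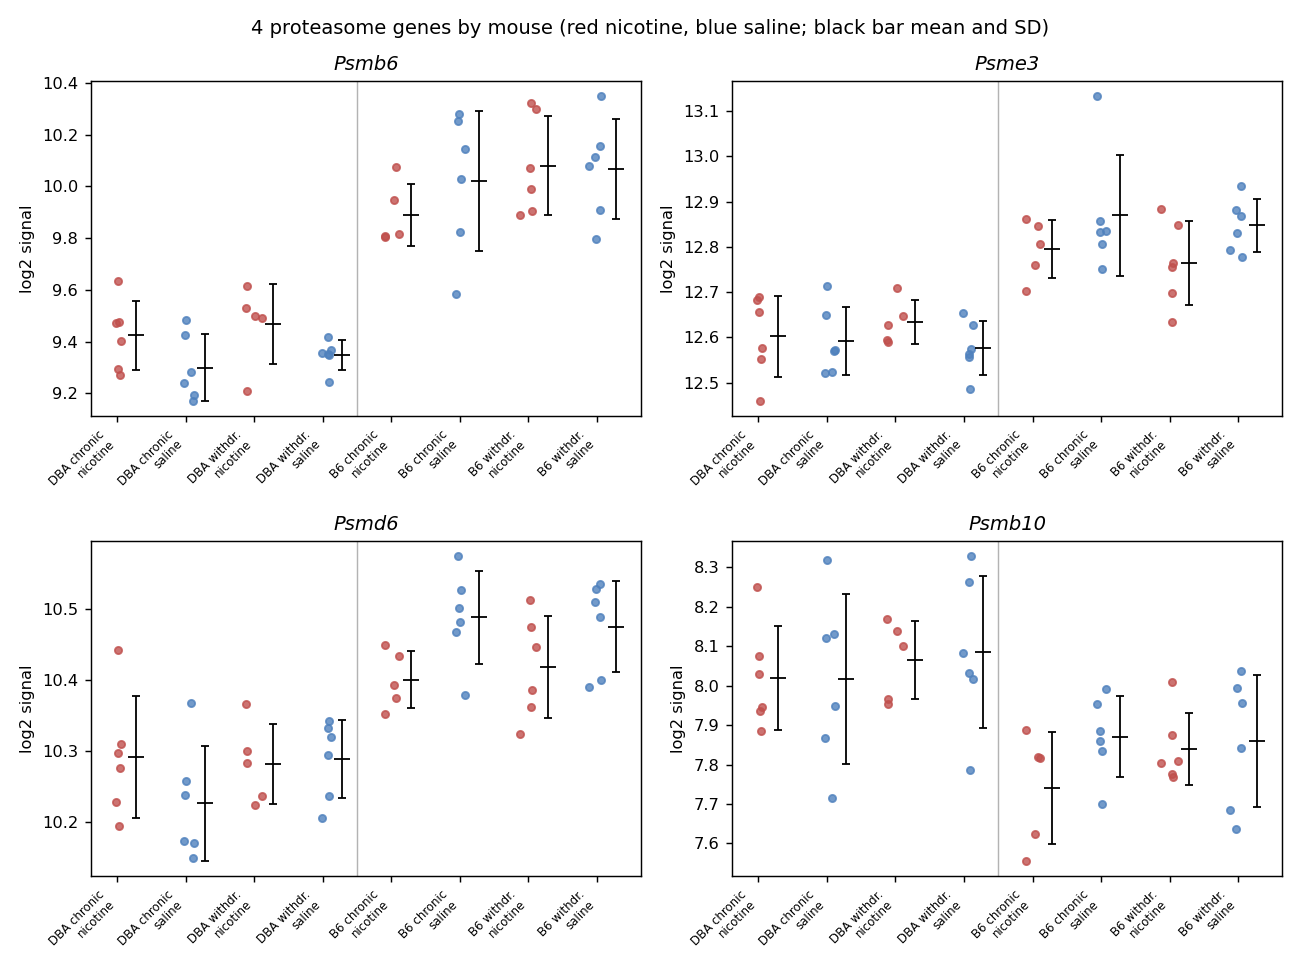
Log2 array signal of Psmb6, Psme3, Psmd6 and Psmb10 in each mouse (points), with the mean and SD of each group (black bars); DBA/2J groups stand left of the grey line and C57BL/6J groups right of it, nicotine in red and saline in blue. Psmb6 reached at most 9.63 in DBA/2J mice, and in C57BL/6J only 1 chronic saline mouse, at 9.59, lay under that value.

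Among the activators, Psme3 was lower in DBA/2J. It encodes PA28-gamma, a nuclear cap that opens the core to substrates without ubiquitin. Its levels in saline mice were 12.49, 12.57 and 12.71 in DBA/2J and 12.75, 12.83 and 13.13 in C57BL/6J (lowest, median and highest, n = 12 each), and no DBA/2J mouse reached the lowest C57BL/6J mouse. The difference was -0.27 (-0.35 to -0.20; limma adjusted p = 2.8e-08). The value 13.13 came from the mouse that stood apart, and without it the difference was -0.25 (limma adjusted p = 2.0e-08). In nicotine mice Psme3 spanned 12.46 to 12.71 in DBA/2J and 12.63 to 12.88 in C57BL/6J (n = 11 each), so the strains overlapped, with a difference of -0.16 (-0.24 to -0.09; limma adjusted p = 7.6e-04). Psme4, the PA200 cap, and Psme1 and Psme2 did not pass the test in either set.

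In the 19S cap, Psmd6 was lower in DBA/2J. It encodes Rpn7, a scaffold subunit of the lid. Saline levels were 10.15, 10.25 and 10.37 in DBA/2J and 10.38, 10.50 and 10.57 in C57BL/6J (lowest, median and highest, n = 12 each), which do not overlap, and the difference was -0.22 (-0.29 to -0.16; limma adjusted p = 6.0e-08). In nicotine mice the levels were 10.19, 10.28 and 10.44 in DBA/2J and 10.32, 10.39 and 10.51 in C57BL/6J (n = 11 each), with overlap and a difference of -0.12 (-0.19 to -0.06; limma adjusted p = 0.0025). Psmb6, Psme3 and Psmd6 were the 3 genes of 32 whose saline groups did not overlap (9.38%, against 4.67% of all genes).

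The remaining strain calls were small. Psmc6, the ATPase Rpt4, spanned 12.31 to 12.59 in DBA/2J and 12.37 to 12.87 in C57BL/6J saline mice (n = 12 each), with medians of 12.50 and 12.60 and a difference of -0.13 (limma adjusted p = 0.038). In nicotine mice it spanned 12.28 to 12.70 in DBA/2J and 12.41 to 12.81 in C57BL/6J (n = 11 each), with medians of 12.45 and 12.60 and a difference of -0.14 (limma adjusted p = 0.0499). Without the mouse that stood apart, the saline difference was -0.12 and no longer passed (limma adjusted p = 0.063). Psmc6 crossed the threshold in many of the repeats that left out a mouse: its adjusted p lay between 0.016 and 0.089 in saline mice and between 0.018 and 0.0996 in nicotine mice. Among the alpha ring genes, Psma1 was lower in DBA/2J saline mice, at 9.57, 9.64 and 9.76 against 9.60, 9.79 and 9.96 in C57BL/6J (n = 12 each), with overlap and a difference of -0.14 (limma adjusted p = 0.013). In nicotine mice Psma1 differed by -0.07 (-0.16 to 0.03) and did not pass.

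Both assembly chaperones with a saline call had overlapping strains. Psmd10, or gankyrin, which helps to assemble the ATPase ring, had levels of 8.86, 9.04 and 9.30 in DBA/2J saline mice and 9.10, 9.17 and 9.34 in C57BL/6J saline mice (n = 12 each). Its difference was -0.14 (limma adjusted p = 0.047), and the adjusted p ran from 0.024 to 0.088 when single mice were left out. Psmg2, or PAC2, which helps to build the alpha ring, had levels of 10.19, 10.33 and 10.48 in DBA/2J and 10.32, 10.47 and 10.63 in C57BL/6J saline mice, a difference of -0.14 (limma adjusted p = 0.014). In nicotine mice Psmg2 stood the other way, at 0.08 (-0.01 to 0.18), and Psmd10 at -0.07 (-0.19 to 0.05), and neither passed.

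**Figure D2:**
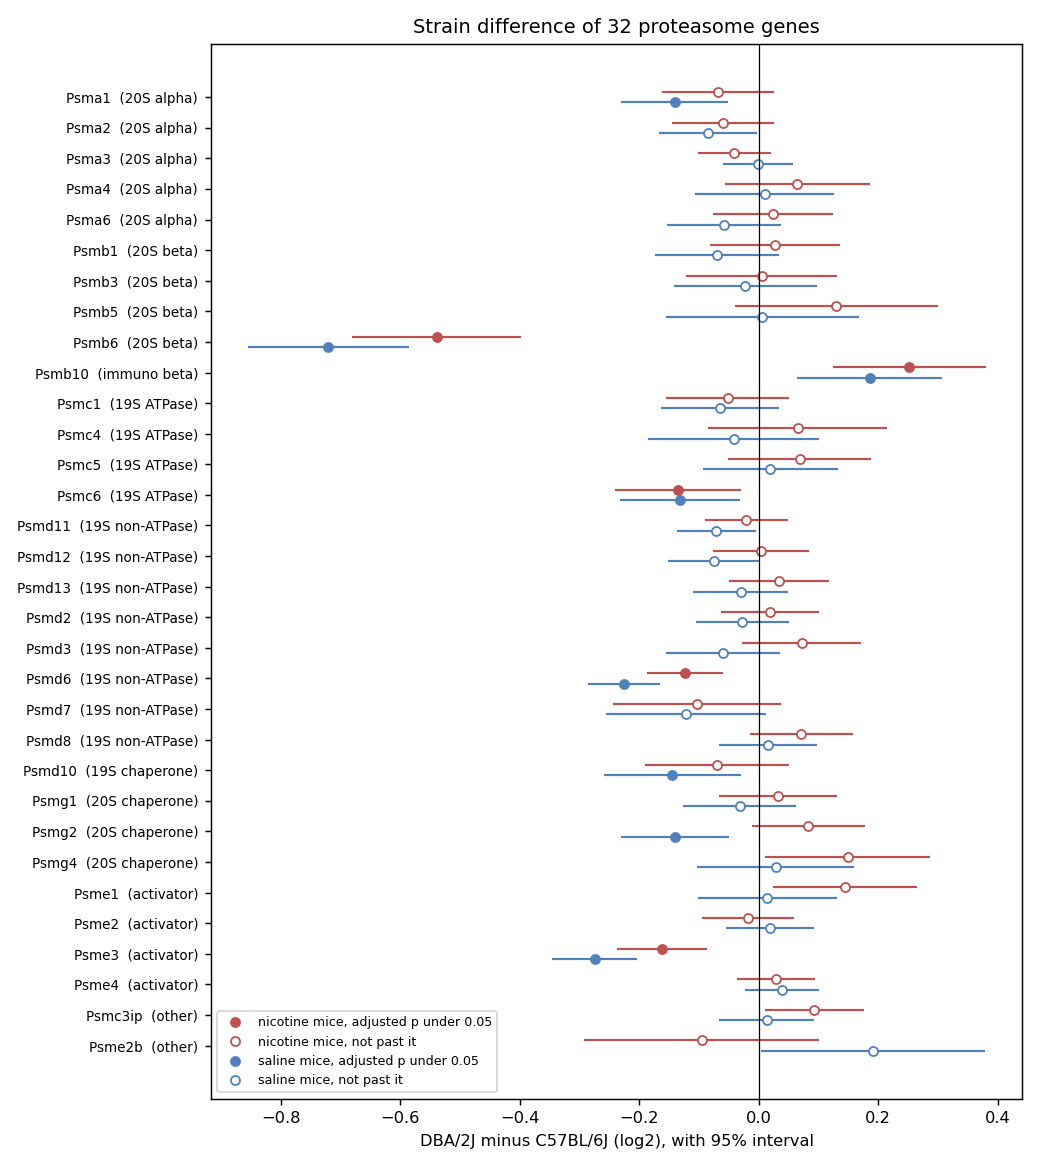
Difference in log2 signal between DBA/2J and C57BL/6J (x axis, with 95% interval) for the 32 tested genes, by role, in nicotine mice (red) and saline mice (blue); filled points passed the adjusted threshold. Psmb6 lies at -0.54 and -0.72, far from the other genes, and Psmb10 is the 1 filled gene to the right of 0.

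Psmb10 was the only called gene that was higher in DBA/2J. It encodes the trypsin-like subunit of the immunoproteasome. In saline mice its levels were 7.72, 8.06 and 8.33 in DBA/2J, against 7.64, 7.87 and 8.04 in C57BL/6J (lowest, median and highest, n = 12 each). The strains overlapped, and the difference was 0.19 (0.06 to 0.31; limma adjusted p = 0.015). In nicotine mice they were 7.89, 8.03 and 8.25 in DBA/2J, against 7.56, 7.81 and 8.01 in C57BL/6J (n = 11 each), with a difference of 0.25 (0.13 to 0.38; limma adjusted p = 0.0019). With arrays centred on their medians the saline difference was 0.14 and no longer passed (limma adjusted p = 0.119).

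The other immunoproteasome genes gave no such difference above the filter. Psmb8 ran from 5.73 to 6.05 in DBA/2J saline mice and from 5.81 to 6.05 in C57BL/6J saline mice, and Psmb9 from 5.56 to 5.87 in DBA/2J and from 5.44 to 5.80 in C57BL/6J, all below the array medians of 6.30 to 6.46 over gene features. When tested without the filter, the Psmb9 difference of 0.09 in saline mice and 0.10 in nicotine mice did not pass (limma adjusted p = 0.070 and 0.065). Psmb11, the thymoproteasome subunit, ran from 4.42 to 5.13 in DBA/2J and from 4.46 to 5.11 in C57BL/6J saline mice. Psme1 averaged 9.20 ± 0.11 in DBA/2J and 9.19 ± 0.13 in C57BL/6J saline mice, and Psme2 7.28 ± 0.07 in DBA/2J and 7.26 ± 0.09 in C57BL/6J (SD, n = 12 each), so neither PA28 gene differed beyond its spread in saline mice. In nicotine mice neither passed with all mice in the fit. Psme1 passed there at 0.17 (limma adjusted p = 0.028) without C57BL/6J withdrawal nicotine mouse 4. Without DBA/2J chronic nicotine mouse 1 it also passed, at 0.17 (limma adjusted p = 0.032). Of 7 tested interferon response markers, 0 were higher (12.4% of all genes were) and 2 lower (19.4%) in DBA/2J saline mice. In nicotine mice 0 were higher (15.4%) and 1 was lower (10.8%). The signal summed over the 12 listed genes with array values, tested or not, ran from 1307 to 1477 units in DBA/2J chronic saline mice. In C57BL/6J chronic saline mice it ran from 1278 to 1492 units. Of 7 microglia markers, 1 was higher and 2 lower in saline mice, and 1 was higher and 3 lower in nicotine mice, against the same shares. The part of these markers in the Psmb10 difference was not tested.

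**Figure D3:**
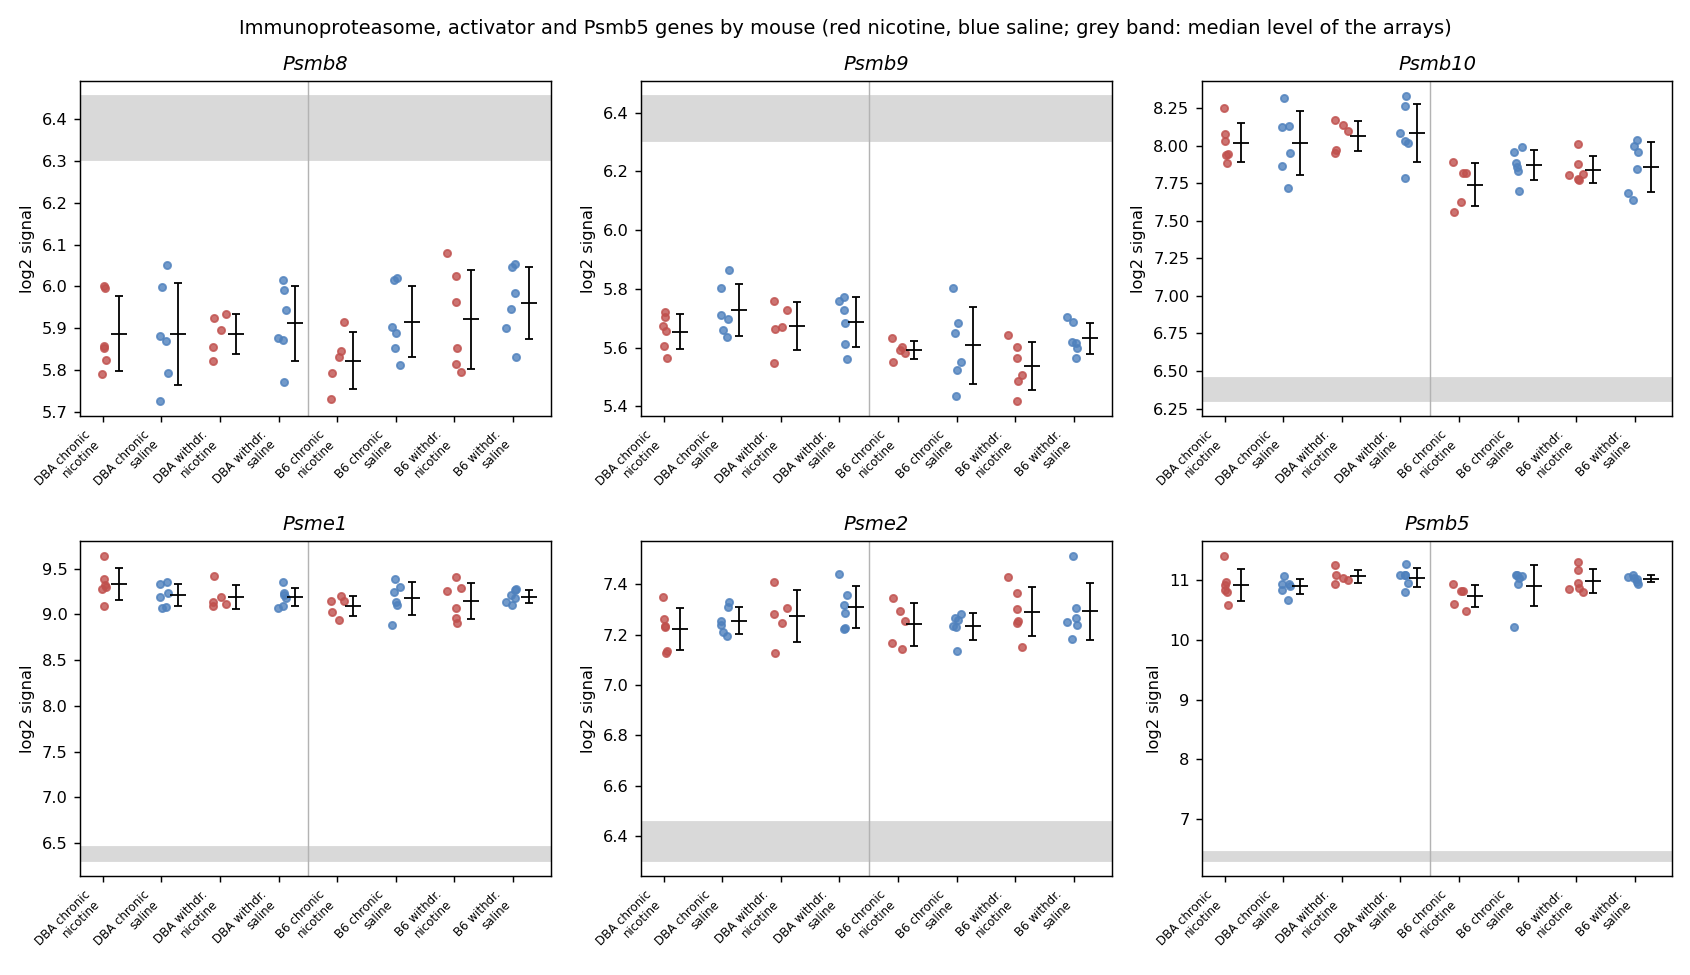
Log2 signal per mouse of Psmb8, Psmb9, Psmb10, Psme1, Psme2 and Psmb5, with group means and SD; the grey band spans the array medians, 6.30 to 6.46, that served as the filter level. Psmb8 and Psmb9 lie below the band in all 46 mice, and the other 4 genes lie above it.

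Cell type markers also moved with strain. In saline mice 5 of 9 oligodendrocyte markers and 4 of 9 striatal markers were lower in DBA/2J (19.4% of all genes were), and 0 of either list were higher. Of 7 cortical markers 2 were called higher and 0 lower, although only 3 of the 7 lay above 0 and their median was -0.13. Of 6 astrocyte markers 2 were higher and 2 lower (12.4% of all genes were higher). In nicotine mice 5 of 9 oligodendrocyte markers and 1 of 9 striatal markers were lower (10.8% of all genes). Of the 7 cortical markers 2 were called higher there and 0 lower, with 3 above 0 and a median of -0.08. Of the 6 astrocyte markers 2 were higher and 1 lower (15.4% of all genes were higher). The signal summed over the 10 oligodendrocyte genes with array values ran from 135564 to 183125 units in DBA/2J and from 139649 to 201766 units in C57BL/6J chronic saline mice. Summed striatal signal ran from 89535 to 130363 units in DBA/2J and from 88356 to 163253 units in C57BL/6J chronic saline mice. The part of these markers in the proteasome differences was not tested.

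Sequence just upstream of the annotated start is shown for the gene with the greatest strain difference, for the activator that was also lower in DBA/2J, and for the 1 gene that was higher. The 3 stretches are the 250 bases before the start from RefSeq (GRCm38.p6, the C57BL/6J genome), at chr11:70525107-70525356 on the plus strand, chr11:101315963-101316212 on the plus strand and chr8:105938393-105938642 on the minus strand. Capitals mark TGACNNNGC, the core of the antioxidant response element that the proteasome regulators Nrf1 and Nrf2 bind, CCAAT, and the GC box GGGCGG, each searched on both strands.
Psmb6: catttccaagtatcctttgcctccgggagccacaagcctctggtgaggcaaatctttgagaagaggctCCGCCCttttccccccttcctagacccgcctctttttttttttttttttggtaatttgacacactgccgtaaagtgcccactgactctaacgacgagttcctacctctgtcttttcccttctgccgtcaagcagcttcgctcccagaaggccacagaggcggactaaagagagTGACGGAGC
Psme3: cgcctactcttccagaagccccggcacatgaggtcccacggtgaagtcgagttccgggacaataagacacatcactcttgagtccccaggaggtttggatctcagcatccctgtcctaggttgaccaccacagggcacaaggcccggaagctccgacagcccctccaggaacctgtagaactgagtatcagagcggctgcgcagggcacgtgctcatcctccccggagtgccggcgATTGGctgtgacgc
Psmb10: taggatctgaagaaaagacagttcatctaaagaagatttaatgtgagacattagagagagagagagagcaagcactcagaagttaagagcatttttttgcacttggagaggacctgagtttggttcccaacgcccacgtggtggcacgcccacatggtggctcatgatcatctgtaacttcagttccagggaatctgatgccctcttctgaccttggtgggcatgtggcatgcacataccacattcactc
Psmb6 held 1 antioxidant match, ending at the base before the start, and 1 GC box on the minus strand. Psme3 held 1 CCAAT match, also on the minus strand, and Psmb10 none of the 3 motifs in this window. No 2 matches overlapped.

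Windows were matched for 42 of the 50 genes. The antioxidant core was in 5 of the 42 (11.9%: Psmb5, Psmb6, Psmc6, Psmd9 and Psmd12), against 11.5% of 27025 genes. CCAAT was in 15 (35.7%, against 37.5%) and the GC box in 22 (52.4%, against 35.4%). A match of letters is not a binding site, and the antioxidant and CCAAT shares were near those of all genes.

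With nicotine still running, no proteasome gene passed the test in either strain. In DBA/2J, 0 of 32 genes were called (0% of 9609 genes), 2 had an unadjusted p under 0.05 (6.25%, against 8% of all genes), and no gene had separate groups (0.156% of all genes). The 32 differences ran from -0.09 to 0.21, and 30 of them were above 0, where 62% of all genes also were. Their median was 0.05, against 0.02 over all genes. In C57BL/6J, 0 of 32 were called (0%), 2 had an unadjusted p under 0.05 (6.25%, against 4.68%), none had separate groups (0.208%), and 7 were above 0 (34.5% of all genes). The median there was -0.06, against -0.03 over all genes. Under quantile normalization 18 of the DBA/2J differences were above 0 and the median was 0.01, while 7 of the C57BL/6J differences were above 0, with a median of -0.05.

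By role, the DBA/2J differences had medians from 0.02 for the activators to 0.15 for the 20S assembly chaperones among subunit roles of several genes, and -0.04 for the 2 genes that carry the symbol without being subunits. The immunoproteasome gene Psmb10 stood at 0.00 there. In C57BL/6J the beta ring had the lowest role median among lists of several genes, at -0.15, and all 4 tested beta ring genes lay below 0, from -0.17 to -0.06. Without the saline mouse that stood apart they ran from -0.31 to -0.14, with a median of -0.22. The C57BL/6J medians of the alpha ring, the ATPases and the other 19S subunits were -0.04, -0.05 and -0.03.

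Psmg4 and Psmg1, both assembly chaperones of the 20S core, had the smallest p in DBA/2J. Psmg4 stood at 6.46, 6.61 and 6.67 with nicotine, against 6.10, 6.40 and 6.54 with saline (lowest, median and highest, n = 6 each), a difference of 0.21 (0.03 to 0.40; limma adjusted p = 0.607). Psmg1 stood at 8.46, 8.51 and 8.65 with nicotine, against 8.31, 8.34 and 8.59 with saline, a difference of 0.15 (0.01 to 0.28; limma adjusted p = 0.607). For both genes the highest saline mice lay within the nicotine range. Psmg4 is close to the filter level, exceeding it on 34 of 46 arrays.

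Psmb1 and Psmg2 had the smallest p in C57BL/6J. Psmb1 was at 12.69, 12.74, 12.82, 12.89 and 13.08 in the 5 nicotine mice, against 12.67, 13.04 and 13.15 in the 6 saline mice. The difference was -0.16 (-0.32 to -0.01; limma adjusted p = 0.992), and the lowest saline value was that of the mouse that stood apart, without which it was -0.23 (limma adjusted p = 0.264). Psmg2 was at 10.19, 10.23, 10.31, 10.33 and 10.50 with nicotine, against 10.33, 10.45 and 10.59 with saline, a difference of -0.14 (-0.28 to -0.01; limma adjusted p = 0.992). Of its 5 nicotine mice, only the one at 10.50 lay well inside the saline range.

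The catalytic genes can be set side by side. Psmb5 was at 10.48, 10.60, 10.81, 10.82 and 10.94 in the C57BL/6J nicotine mice, against 10.21, 11.05 and 11.08 in the saline mice, a difference of -0.17 (-0.41 to 0.07), or -0.31 without the saline mouse at 10.21 (limma adjusted p = 0.270). In DBA/2J, Psmb5 differed by 0.02 (-0.20 to 0.25). Psmb6 differed by 0.12 in DBA/2J (-0.07 to 0.32) and by -0.13 in C57BL/6J (-0.33 to 0.07), or -0.22 without that mouse (limma adjusted p = 0.367). Psme1 differed by 0.13 in DBA/2J and -0.08 in C57BL/6J, or -0.14 without that mouse, and Psme2 by -0.03 in DBA/2J and 0.01 in C57BL/6J.

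**Figure D4:**
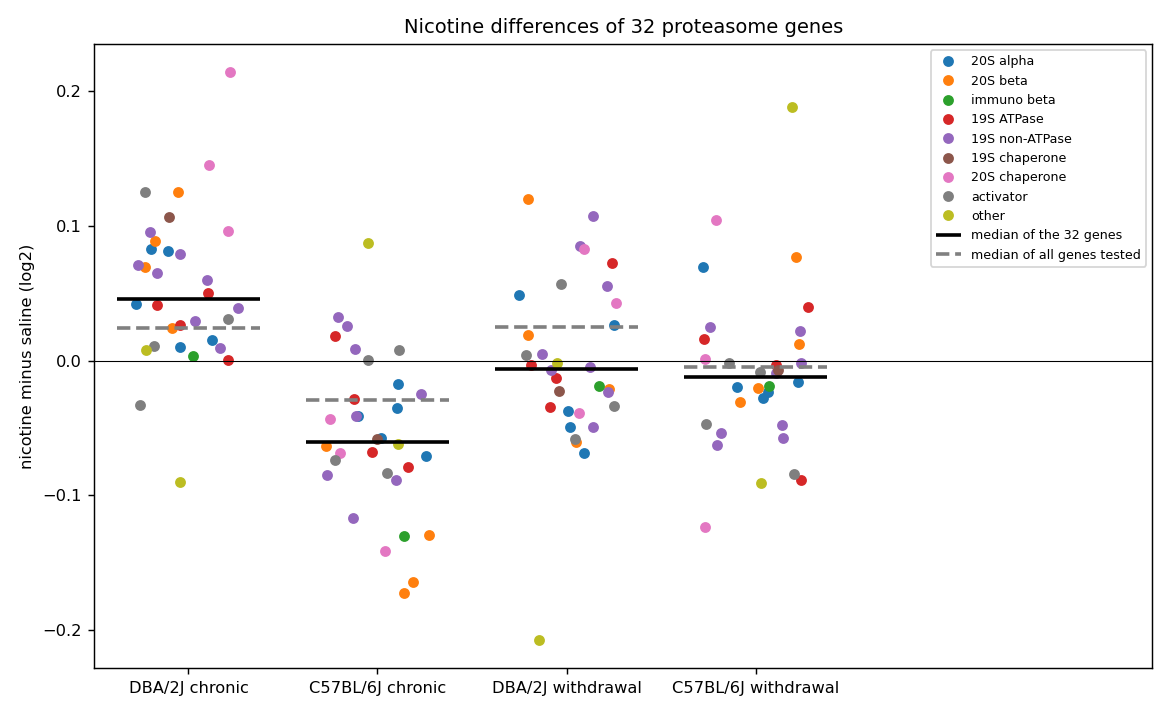
Nicotine minus saline difference in log2 signal (y axis) of the 32 tested genes, coloured by role, in the 4 combinations of strain and phase; black lines are the medians of the 32 genes and dashed grey lines those of all genes tested. The medians of the 32 genes are 0.05, -0.06, -0.01 and -0.01 from left to right, and 0 genes passed the test in any of the 4.

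The nicotine difference itself was compared between strains. In the chronic phase, 28 of the 32 genes (and 67.6% of all genes) had a more positive difference in DBA/2J than in C57BL/6J, with a median of 0.11 against 0.06 over all genes, and 0 were called (4 at an unadjusted p under 0.05, 12.5%, against 9.94% of all genes). The median was 0.16 with arrays centred on their medians and 0.07 under quantile normalization, where all genes stood at 0.11 and 0.02. Psmg2 had the smallest p, with 0.10 in DBA/2J and -0.14 in C57BL/6J, a difference of 0.24 (0.05 to 0.42; limma adjusted p = 0.476). Psmd6 followed, with 0.07 in DBA/2J and -0.09 in C57BL/6J, a difference of 0.15 (0.03 to 0.28; limma adjusted p = 0.476). Without the C57BL/6J mouse that stood apart, 29 of 32 were more positive in DBA/2J, and Psmb1 had the smallest p, at 0.30 (limma adjusted p = 0.122), while Psmg2 stood at 0.23 (limma adjusted p = 0.199). Per mouse, Psmd6 stood at 10.19, 10.29 and 10.44 in DBA/2J nicotine mice against 10.15, 10.21 and 10.37 in DBA/2J saline mice, and at 10.35, 10.38, 10.39, 10.43 and 10.45 in C57BL/6J nicotine mice against 10.38, 10.49 and 10.57 in C57BL/6J saline mice.

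Cell type markers were followed in the DBA/2J chronic comparison as well. All 9 striatal markers were above 0 (median 0.24), 1 of 7 cortical markers was (median -0.41), and 0 of 9 oligodendrocyte markers were (median -0.22), with 0 of them called. The summed striatal signal was 110465 to 160498 units with nicotine and 89535 to 130363 units with saline. The cortical sum was 13443 to 39301 units with nicotine and 24166 to 41102 with saline, and the oligodendrocyte sum 116762 to 169517 with nicotine and 135564 to 183125 with saline. Their part in the proteasome values was not tested.

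After 24 hours without the pump, the nicotine groups again gave no call. In DBA/2J, 0 of 32 genes were called (0%), 0 had an unadjusted p under 0.05 (5.44% of all genes did), 13 lay above 0 (62.1% of all genes) and the median was -0.01, against 0.02 over all genes. In C57BL/6J, 0 were called (0%), 0 had an unadjusted p under 0.05 (2.99%), 10 lay above 0 (47%) and the median was -0.01, while under quantile normalization 4 lay above 0 and the median was -0.05. No gene had separate groups in either strain (0.541% and 0.156% of all genes). With arrays centred on their medians, 26 of the DBA/2J differences were above 0 and their median was 0.04, below the 0.07 of all genes. In C57BL/6J withdrawal, 9 of 9 striatal markers were above 0 (median 0.16), as were 1 of 7 cortical (-0.25), 0 of 9 oligodendrocyte (-0.13) and 0 of 6 astrocyte markers (-0.07). In DBA/2J withdrawal, 9 of 9 striatal (median 0.08), 6 of 7 cortical (0.18), 8 of 9 oligodendrocyte (0.04) and 6 of 6 astrocyte markers (0.07) were above 0. Of these markers 0 were called in either strain, and their part in the proteasome values was not tested.

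Psma3, an alpha ring gene, was among the 2 genes with the smallest p in each strain, with values on opposite sides of 0, though neither reached an unadjusted p under 0.05. In DBA/2J it was at 11.99, 12.00, 12.06, 12.11 and 12.22 in the 5 mice withdrawn from nicotine, against 12.11, 12.15 and 12.17 in the 6 withdrawn from saline, a difference of -0.07 (-0.16 to 0.02; limma adjusted p = 0.858). In C57BL/6J it was at 12.12, 12.19 and 12.29 after nicotine, against 12.00, 12.15 and 12.27 after saline, a difference of 0.07 (-0.01 to 0.15). The strain difference of the effect was -0.14 (-0.26 to -0.02; limma adjusted p = 0.690), and 0 of 32 genes were called in that comparison (3 at an unadjusted p under 0.05, 9.38%, against 7.04%), with 18 of 32 above 0 (60% of all genes) and a median of 0.03. That count was 27 with arrays centred on their medians (median 0.08, as over all genes) and 25 under quantile normalization (median 0.07, as over all genes).

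Psmd3, a lid subunit of the 19S cap, was at 9.29, 9.29, 9.36, 9.45 and 9.51 in DBA/2J mice withdrawn from nicotine, against 9.13, 9.30 and 9.39 in those withdrawn from saline, a difference of 0.11 (-0.03 to 0.25; limma adjusted p = 0.858). Psmg2 had the smallest p in C57BL/6J, at 10.21, 10.35 and 10.54 after nicotine, against 10.32, 10.49 and 10.63 after saline, a difference of -0.12 (-0.25 to 0.00). It stood at 0.08 in DBA/2J (-0.05 to 0.22), and the strain difference of its effect was 0.21 (0.02 to 0.39; limma adjusted p = 0.690). In both phases its DBA/2J value was above 0 and its C57BL/6J value below 0, with overlapping groups each time.

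Withdrawn and ongoing nicotine were compared within each strain, a comparison that also holds the removal of the pump. In C57BL/6J, 25 of 32 genes were above 0 in withdrawn mice (56.7% of all genes), with a median of 0.05 against 0.01 over all genes, and 0 were called (0%). Of the 32 genes, 4 had an unadjusted p under 0.05 (12.5%, against 7.79%), and no gene had separate groups (0.749%). Psmb3 was at 9.04, 9.34 and 9.44 in withdrawn mice (n = 6), against 8.85, 8.99, 9.03, 9.13 and 9.26 in mice with nicotine running, a difference of 0.25 (0.08 to 0.43; limma adjusted p = 0.520). Psmb1 was at 12.94, 13.03 and 13.21 in withdrawn mice, against 12.69 to 13.08, a difference of 0.22 (0.07 to 0.37; limma adjusted p = 0.520). For both genes the lowest withdrawn mice lay within the range with nicotine running. Psmb5 differed by 0.26 (0.02 to 0.50; limma adjusted p = 0.614) and Psmb6 by 0.19 (-0.01 to 0.39), so the 4 constitutive beta ring genes with array values, of 7, had values from 0.19 to 0.26. Pump removal alone, in C57BL/6J saline mice, gave these 4 genes values from 0.05 to 0.12. Without the saline mouse that stood apart, those values ran from -0.04 to 0.04. The part of pump removal in the nicotine values was not tested. The C57BL/6J mice with nicotine running also enter the chronic nicotine comparison above, so these values are not independent of that one.

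In DBA/2J, 19 of 32 genes were above 0 in withdrawn against ongoing nicotine (52% of all genes), with a median of 0.01 against 0.00 over all genes, and 0 were called (0%), with 0 at an unadjusted p under 0.05 (3.76% of all genes). Psme1 had the smallest p, at 9.10, 9.12, 9.14, 9.19 and 9.42 in withdrawn mice, against 9.09, 9.31 and 9.63 with nicotine running, a difference of -0.14 (-0.31 to 0.03; limma adjusted p = 1.00). Psma3 followed at -0.07 (-0.15 to 0.02). The beta ring genes Psmb1 and Psmb3 differed by 0.03 and 0.03 there. Whether the withdrawn minus ongoing difference of these genes differs between strains was not tested.

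Pump removal alone, in saline mice, gave 0 calls in both strains (0% of all genes), and no proteasome gene had separate groups (0.229% of all genes in DBA/2J and 0.104% in C57BL/6J). In DBA/2J, 27 of 32 genes were above 0 in mice without the pump (54.3% of all genes), with a median of 0.05 against 0.01 over all genes, and 4 had an unadjusted p under 0.05 (12.5%, against 4.05%). Of these 4, those named above for other comparisons were Psmb1 at 0.15 (0.01 to 0.30) and Psmg4 at 0.21 (0.02 to 0.39). Under quantile normalization 18 of the DBA/2J differences were above 0 and the median was 0.01. In C57BL/6J, 21 of 32 were above 0 (46.3%), or 16 without the mouse that stood apart, with a median of 0.01 (0.00 without it), and 1 had an unadjusted p under 0.05 (3.12%, against 3.76%). The saline mice of each strain also serve as the references of the nicotine comparisons, so these values are not independent of them.

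The authors' S-scores covered all 50 genes. A negative score means a nicotine mouse below the saline mice of its strain and phase. No gene of 25888 passed an adjusted p under 0.05 in any of the 4 groups (limma on the scores). In DBA/2J chronic mice 38 of the 50 mean scores were above 0 (44.6% of all genes; median 0.41, against -0.07 over all genes), and 0 had an unadjusted p under 0.05 (5.63% of all genes). In C57BL/6J chronic mice 14 were above 0 (50.6%; median -0.39, against 0.01 over all genes), and 4 had an unadjusted p under 0.05 (8%, against 3.13%). In withdrawal 26 were above 0 in DBA/2J (52.3%; median 0.05) and 15 in C57BL/6J (48.8%; median -0.23), with 0 at an unadjusted p under 0.05 in both (6.44% and 2.94% of all genes).

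The 14 genes with S-scores alone cover the trypsin-like catalytic gene Psmb7, 2 other beta ring genes, 2 alpha ring genes, 2 ATPases, 3 other 19S subunits, 3 assembly chaperones and Psmf1, an inhibitor known as PI31. Psmd4, the ubiquitin receptor Rpn10, scored -2.76, -1.84, -1.82, -0.77 and -0.18 in the 5 C57BL/6J chronic nicotine mice, a mean of -1.47. Psmb4, a beta ring gene, scored -2.25, -1.78, -1.43, -0.60 and -0.43 in them, a mean of -1.30. All 5 mice were below 0 for both genes, and neither passed (limma adjusted p = 1.00 for both, unadjusted p = 0.029 and 0.024). Psmb7 averaged -1.12 in them, with 4 of 5 mice below 0, and 0.20 in DBA/2J chronic mice, which spread from -2.03 to 2.50.

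In DBA/2J chronic mice Psmd5, an assembly chaperone of the ATPase ring, averaged 1.21 (lowest -1.39, highest 3.46) and Psmd4 averaged 1.11 (-0.60 to 2.38). In C57BL/6J withdrawal, Psmd5 averaged -1.45 (-4.98 to 0.31) and Psmd14, the deubiquitinase Rpn11 of the lid, averaged 0.91 (-2.01 to 2.71). In DBA/2J withdrawal, Psmd14 averaged -1.31, with 4 mice between -2.55 and -0.98 and 1 at 1.39, and Psmd5 averaged 1.30, from -0.32 to 3.74. These mice spread across 0 for each gene in each of these 3 groups, and none passed.

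**Figure D5:**
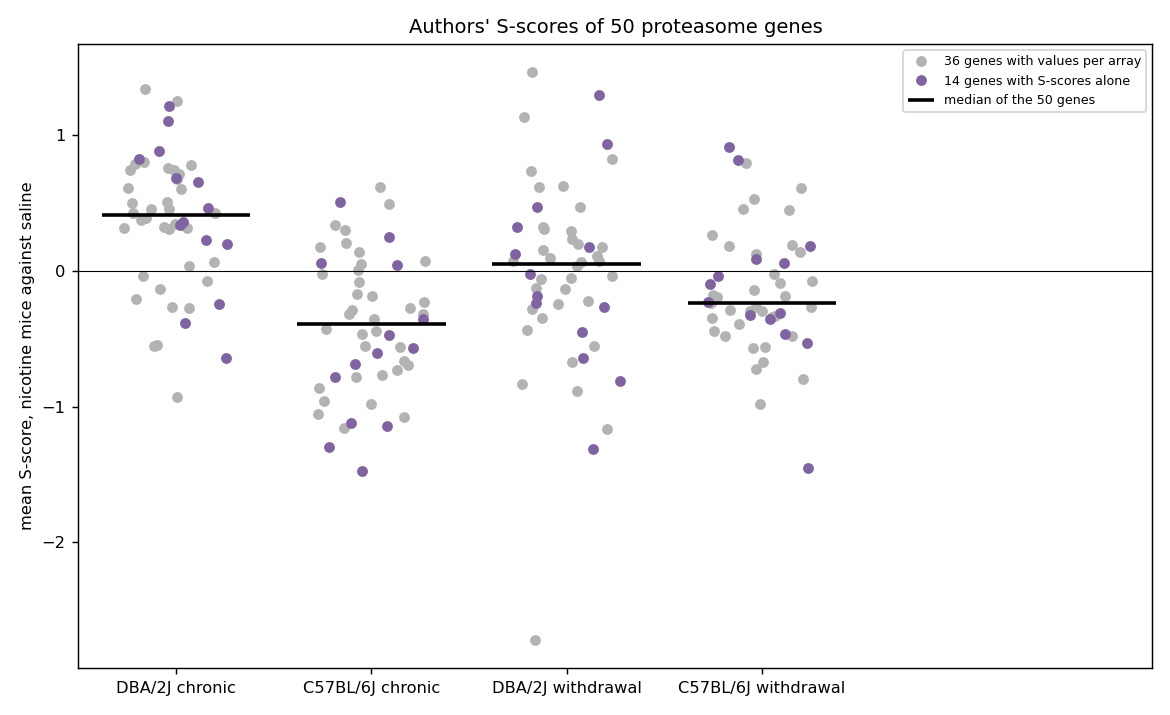
Mean S-score of the nicotine mice against saline (y axis) for the 50 genes in each strain and phase, with the 14 genes that had no values per array in purple and the median as a black line. The medians are 0.41, -0.39, 0.05 and -0.23 from left to right, and 0 genes passed the adjusted threshold.

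After each group's mean was removed, the 496 pairs of the 32 genes had a median Pearson r of 0.21 over 46 arrays, and 14.1% of pairs exceeded 0.5, against a median of 0.03 and 2.54% over all gene pairs. These r describe arrays that share RNA preparation, dissection and scaling, and carry no test. The closest pairs were Psma4 with Psma6 in the alpha ring (r = 0.78), Psmb1 with Psmd3 (0.73), Psma4 with Psmd7, a lid subunit (0.73), and the ATPases Psmc1 and Psmc5 (0.72). Psmb6 followed Psmc4 (0.71), and Psmb3 followed Psmb5 (0.70). The array that stood apart, the lowest of its group for Psmb1, Psmb3, Psmb5 and Psmd3, is among the 46. Values of r without it were not computed.

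Not every subunit joined in. The median r of a gene with the other 31 was highest for Psmd8 and Psma4 (0.38 each) and lowest for Psme1 (-0.07), Psme3 (-0.04) and Psme2b (-0.01). Psmb6, the gene with the strain difference, had a median of 0.06, and Psma1 ran against Psmc4 (r = -0.47). Within groups, the median SD of the 32 genes was 0.116, against 0.124 over all genes, with Psma3 the steadiest (0.064) and Psme2b the most variable (0.237).

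Genes that regulate or attach to the proteasome were followed as well. Of 34 listed genes 13 were tested, and 0 were called in the 4 nicotine comparisons. In saline mice 3 were higher in DBA/2J, Txnl1 (a thioredoxin bound to the 19S cap, 0.15), Zfand5 (0.10) and Nploc4 (a cofactor of the unfoldase Vcp, 0.08), and 2 were lower, Ubqln1 (a ubiquitin shuttle, -0.15) and Uba1 (the ubiquitin-activating enzyme, -0.09). Those 5 of 13 compare with 31.8% of all genes. Of these 5 genes, Txnl1 (0.16) and Nploc4 (0.11) passed in nicotine mice too, again higher in DBA/2J.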

How the data were processed

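Whole accumbens RNA of 46 mice was measured, 1 array per mouse, and the labels give each mouse its strain, drug, phase and number. The authors deposited log2 signal per transcript cluster, with array medians between 6.52 and 6.63. Differences as small as those of the nicotine comparisons depend on that range. With arrays centred on their medians, 26 of 32 DBA/2J withdrawal differences were above 0, in place of 13. The authors also deposited S-scores, per the file headers a score that sets each nicotine mouse against its matching saline mice together. The sources used here do not state the summarisation, the scaling or the genome build of the coordinates. Per-mouse values covered 16322 genes, and those above the 50th percentile of the gene features on at least 5 arrays were tested, 9609 in all.

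A model with 1 coefficient per group was fitted to all 46 arrays with limma 3.58.1 under R 4.3.3, and p-values were adjusted by Benjamini-Hochberg over all tested genes at a threshold of 0.05. S-scores were fitted with limma over all genes, with the number of saline mice entered in the error. The fits were tested on simulated data. Figures used matplotlib 3.10.9 and pandas 2.3.3 (Python 3.11.15). Mouse numbers did not pair the samples. After each group's mean was removed, same-numbered nicotine and saline mice had correlations of -0.35 to 0.20. Their medians in the 4 nicotine comparisons were -0.07 to -0.01, against -0.02 to 0.11 for mice of other numbers, so the model has no block. Genes named with values per mouse are those past the threshold, those with the smallest p where none passed, the catalytic genes, Psme1 and Psme2. The genes and lists were chosen with earlier results of these data known. Alternatives covered the filter, scaling, feature per gene, samples in the fit, prior, array weights, block and single mice. The pseudogene Psmb5-ps was left out. A gene of the regulatory list is not reported here. Promoter windows came from RefSeq, GRCm38.p6. Columns of per-sample values that could not be mapped numbered 0. The number of arrays limits the precision, and p-values measure the spread between mice.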

Additional observations from a re-analysis of the deposited data

Results flagged for a closer look

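Single mice lay far from the rest of their group in 5 of 160 checks, which took 20 genes in each of 8 groups, and chance gives about 1 in 20. All 5 were in the C57BL/6J chronic saline group (n = 6), and 4 of them were mouse 3, the array that stood apart. In mouse 3, Psmb1 was at 12.67, Psmb3 at 8.75 and Psmb5 at 10.21, each the lowest of its group. The next mouse was at 9.14 for Psmb3 and 10.94 for Psmb5. Psme3 was at 13.13 in mouse 3, the highest of its group, with the next mouse at 12.86. Psme2 was at 7.13 in mouse 1, the lowest of its group, with the next mouse at 7.23.

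Without mouse 3, the chronic nicotine minus saline difference in C57BL/6J was -0.23 for Psmb1 (-0.16 with it), -0.14 for Psmb3 (-0.06 with it), -0.31 for Psmb5 (-0.17 with it) and -0.02 for Psme3 (-0.07 with it). None of these 4 passed the test either way (limma adjusted p = 0.264, 0.560, 0.270 and 0.913 without it). Of the 32 genes, 5 were above 0 without mouse 3 and 7 with it, and the median was -0.05 without it and -0.06 with it. The part of the striatal and cortical marker levels of this mouse in these values was not tested.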

How the results depend on the processing

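In 618 repeats under the alternatives, the counts of called proteasome genes, S-scores included, stayed within 1.5 times the reported count, and their medians moved by less than the SD between mice of 0.06. That margin is as wide as the nicotine minus saline medians themselves, so it cannot show that medians of this size held. Under quantile normalization the DBA/2J median fell from 0.05 to 0.01 in the chronic nicotine comparison, and likewise from 0.05 to 0.01 for pump removal in saline mice. Medians near 0 crossed it, as in withdrawal, where leaving out single mice gave -0.04 to 0.02 in DBA/2J and -0.04 to 0.00 in C57BL/6J. The 8 genes called in saline mice numbered 6 to 10 and the 5 in nicotine mice 4 to 6, and the nicotine comparisons gave 0 calls under each alternative. Of 788 repeats for single named genes, 738 stayed on the same side of the threshold, 50 lost the call and 0 reversed. The lost calls were of Psmb10 in saline mice (arrays centred on their medians), Psmd10 in saline mice (17 of 33), and Psmc6 in saline (11 of 33) and nicotine mice (21 of 31). Without the filter, Psmc6 had limma adjusted p = 0.052 and Psmd10 0.063 in saline mice, where more genes were tested. The causes of the other changes were not tested. Calls were gained under some settings by Psma2, Psmd7, Psmd11, Psmd12 and Psme2b in saline mice and by Psmc3ip, Psme1 and Psmg4 in nicotine mice. Psmb6 kept its call, at -0.77 to -0.69 in saline and -0.56 to -0.51 in nicotine mice.

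The mouse numbers share only a number. With the replicate block, the counts of called genes were 8 in saline and 5 in nicotine mice. In nicotine mice Psmc6, at -0.14, lost its call (limma adjusted p = 0.062) and Psmg4, at 0.15, gained one (limma adjusted p = 0.049), and the block moved no other call. In the 4 nicotine comparisons, 0, 1, 1 and 0 of 5 or 6 mice correlated best with the mouse of their own number. All groups had 5 or 6 mice, so small differences may be missed, and genes near the array median, such as Psmg4, have little signal over background.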
